A study of Homo sapiens with 6 samples.

Results

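The genes described here encode integrins, the proteases that cut extracellular matrix and cell surface proteins, and the inhibitors and activators of those proteases. They were chosen by name, with earlier results of these data known. The names were those of protein-coding genes called ITGA, ITGB, MMP, ADAM, ADAMTS or TIMP with a number, together with ITGAV, PLAU, PLAUR and PLAT. Of 88 such symbols, 55 had a mean of at least 0.5 CPM (reads of a gene scaled to the size of the library) over the 6 libraries and are the members, out of 63677 gene identifiers in the whole table. All 55 were among the 15099 genes that passed the filter on low counts and were tested.

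T24 is a human cell line from a bladder carcinoma. The cells were transfected for 4.5 h in serum-free medium with 25 nM of either a mixture of siRNAs against RBM3, an RNA-binding protein, or a non-targeting control siRNA, and were collected the next day after a night in full medium. Polyadenylated RNA was sequenced as stranded single-end reads of 75 bases from 3 control libraries, numbered 1, 3 and 5, and 3 siRBM3 libraries, numbered 3, 4 and 5. Both groups carry the T24 background and the transfection itself, untransfected cells are not part of the comparison, and a single cell line stands for the tumour.

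Integrins are pairs of an alpha and a beta subunit that link matrix proteins outside the cell to the actin skeleton inside it. Matrix metalloproteinases (MMPs) and ADAMTS proteases cut collagens, proteoglycans and other matrix proteins. Many ADAMs release the outer parts of membrane proteins, and TIMPs block the active site of zinc proteases of these families. The plasminogen activators PLAU and PLAT turn plasminogen into plasmin, which degrades fibrin and activates some pro-MMPs. In bladder tumours these genes are best known for their part in invasion.

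RBM3 stood at 225, 367 and 300 CPM in control libraries 1, 3 and 5 and at 54.1, 90.0 and 58.3 CPM in siRBM3 libraries 3, 4 and 5, a 4.41-fold lower level (log2 fold change -2.14, SE 0.24), with no overlap of the groups. Its FDR was 0.0822 in edgeR, so the silenced gene itself was not called at an FDR of 0.01, and its adjusted p was 3.87e-14 in DESeq2, which called it. CPM were scaled by the TMM factors of edgeR, and values are always listed in this order of libraries. The libraries held 23603992 to 45098612 counts, and the members took 0.741 to 0.829% of them. The deepest, siRBM3 library 3, had 9.40% of its counts on mitochondrial genes, against 4.15 and 2.32% in the other siRBM3 libraries and 1.63 to 2.86% in the controls, so the counts at p under 0.05, class medians and named genes were also fitted without it. Of 5 epithelial markers, 4 were above 1 CPM and CDH1 was below it. KRT8 was at 1343, 992 and 1110 CPM in control and 780, 920 and 965 CPM in siRBM3, without overlap (log2 fold change -0.37, edgeR FDR 0.309), and the summed list ran from 1902 to 2628 and from 1664 to 1936 CPM. Of 8 luminal urothelial markers, PPARG (132 to 149 CPM), FOXA1 (39.0 to 49.8), GATA3 and UPK2 (1.13 to 1.86) were above 1 CPM, and UPK1A, UPK1B, UPK3A and KRT20 were below it. GATA3 was at 9.30, 10.4 and 12.5 CPM in control and 13.6, 14.2 and 13.7 CPM in siRBM3, without overlap (0.37, edgeR FDR 0.354), and the summed list ran from 197 to 202 and from 197 to 209 CPM. Of 5 basal markers, CD44 was at 1071 to 1303 CPM and KRT5, KRT6A, KRT14 and TP63 were below 1 CPM. Mesenchymal VIM was at 2166 to 2856 CPM. The part of these markers in the results for the members was not tested. Summed leukocyte markers stood at 0.527 to 0.654 CPM in control and 0.197 to 0.484 CPM in siRBM3 libraries, and fibroblast markers at 10.2 to 10.8 and 10.9 to 12.9 CPM, with DCN at or near 0. Summed endothelial markers, VWF and CDH5, stood at 27.9 to 33.7 CPM in control and 33.8 to 40.7 CPM in siRBM3, without overlap. CDH5 made up most of this sum, at 27.2 to 33.4 and 33.3 to 40.4 CPM, with overlap (log2 fold change 0.28, unadjusted edgeR p 0.058).

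The first question was which of these genes the cells used. Levels of different genes were compared per length, as RPKM, the scaled CPM per kilobase of the union of a gene's exons. ITGA3, the alpha subunit of the main laminin receptor of epithelia, had the highest mean of the integrins at 175 RPKM. It was followed by ITGA6, another laminin-binding subunit, at 80.1 RPKM and by ITGB1, the beta subunit shared by most of the alpha subunits, at 78.1 RPKM. The libraries of ITGA6 and ITGB1 overlapped, and their order depended on the length used: per kilobase of the longest transcript ITGB1 stood at 202 and ITGA6 at 92.0 RPKM. ITGA5, the fibronectin receptor subunit, came next at 45.6 RPKM, and ITGB5, a partner of ITGAV, at 41.1 RPKM.

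Among the MMPs, one gene carried most of the signal. MMP14, a membrane-anchored collagenase and activator of pro-MMP2, stood at 60.3 RPKM and made up 65.0 to 74.3% of the summed RPKM of the 11 MMPs in each library. The other MMPs were at most 4.36 RPKM, the level of MMP10, a stromelysin, with MMP13, a collagenase, at 3.71 RPKM. Their order depended on the length used, since MMP17 stood at 5.43 and MMP1 at 4.64 RPKM per kilobase of the longest transcript, above the 4.36 of MMP10. MMP2, the gelatinase that MMP14 activates, was at 2.44 RPKM. ADAM15 led the ADAMs at 42.3 RPKM, ahead of ADAM19 at 35.2 and ADAM9 at 14.7 RPKM. The sheddases ADAM10 and ADAM17 stood at 12.0 and 8.05 RPKM. No ADAMTS reached 10 RPKM, with ADAMTS15 at 6.05, ADAMTS7 at 5.94 and ADAMTS12 at 5.54 RPKM, or 6.05, 8.36 and 6.20 per kilobase of the longest transcript, which turned their order. The inhibitors were more abundant per length than most of the proteases: TIMP1 stood at 127, TIMP3 at 107, TIMP2 at 36.4 and TIMP4 at 3.06 RPKM. Of the plasminogen activators, PLAT was at 60.2 RPKM and PLAU at 43.9 RPKM, and PLAUR, the receptor that holds PLAU at the cell surface, at 13.2 RPKM.

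**Figure D1:**
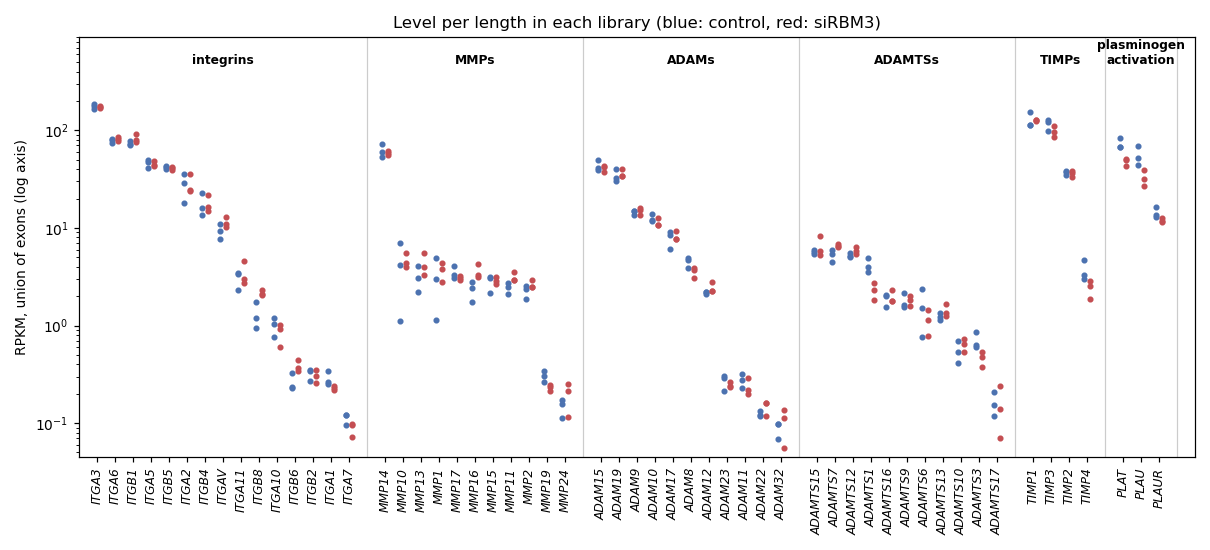
Level of each of the 55 genes per length (RPKM over the union of exons, log axis), by class and in order of the mean; each point is 1 library, blue for the 3 control and red for the 3 siRBM3 libraries. ITGA3 (175 RPKM), TIMP1 (127 RPKM), MMP14 (60.3 RPKM) and PLAT (60.2 RPKM) led their classes, and the control points of MMP10 and MMP1 lie far apart.

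The ITGB1 subunit has 12 possible alpha partners, ITGA1 to ITGA11 and ITGAV. Their summed level was 318 to 359 RPKM in the control and 335 to 360 RPKM in the siRBM3 libraries, above the 70.2 to 92.1 RPKM of ITGB1 in the 6 libraries and the 56.0 to 66.1 RPKM of the other 7 beta subunits together. Per kilobase of the longest transcript, the alpha subunits summed to 492 to 555 RPKM and ITGB1 stood at 182 to 239 RPKM.

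The 33 symbols left out by the CPM limit were integrins, MMPs, ADAMs and ADAMTSs, some of them well known. All 4 TIMPs and all 3 plasminogen activation genes passed it. MMP9, the other gelatinase, had 11 counts over all 6 libraries, MMP7 had 29 and MMP3 had 18. The leukocyte integrin subunits ITGA4 and ITGB7 had 18 and 15 counts, and ITGB3, the platelet and endothelial partner of ITGAV, had 3. ADAM20, ADAM30, MMP12 and MMP28 were listed at 0 in each library, and 3 counts, the limit that a count of 0 allows, would be 0.0172 CPM over the 174551680 counts of all libraries. Reads counted under an older identifier would not be seen in that value. Just above the limit lay MMP24 (0.752 CPM, unscaled) and ITGA7 (0.921), and just below it ADAMTS18 (0.462) and ADAMTS2 (0.391).

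The second question was how the levels differed after RBM3 was silenced. A log2 fold change between -0.2 and 0.2 was found for 28 of 55 members (50.9%), against 56.1% of all genes tested, and the values ran from -0.86 for ADAMTS1 to 0.74 for ITGB8. The median was 0.03 over the members and -0.01 over all genes tested, with 29 members above 0 and 26 below. By the quasi-likelihood test of edgeR, adjusted by Benjamini-Hochberg over all genes, 0 of 55 members passed a 1.5-fold change together with an FDR of 0.01, as did 0% of all genes, and the lowest FDR of a member was 0.110. In bulk RNA, fewer cells of a kind and less RNA per cell cannot be told apart.

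An unadjusted edgeR p under 0.05 was reached by 12 members (21.8%), against 13.1% of all genes tested. The 5 that were higher in siRBM3 (9.09% of members, 6.56% of all genes) were ITGB8, ITGB6, MMP16, MMP11 and ADAMTS7, and the 7 that were lower (12.7% of members, 6.58% of all genes) were PLAT, PLAU, PLAUR, ADAMTS1, ADAMTS3, ADAM8 and TIMP4. Without siRBM3 library 3, the counts were 2 and 4, for which the share of all genes is not given here. With limma-voom, 10 members had an unadjusted p under 0.05 (18.2%, against 13.1% of all genes), and 0 were called. DESeq2, the tool of the study, gave 52 of the members an adjusted p and called 2 of them at the same thresholds (3.85%, against 1.22% of all genes), PLAT and ADAMTS1. Both were lower, a direction in which DESeq2 called 0.574% of all genes. The groups did not overlap for 15 members (27.3%, against 19.9% of all genes tested): 6 were higher (10.9% against 9.98%) and 9 lower (16.4% against 9.93%). Beside the 12, these were ADAM12 on the higher side, and ITGA1 and MMP19 on the lower. For this measure, the share of members was near that of all genes on the higher side and above it on the lower side. The difference between the sides was not tested, and limma-voom gave 5 members on each side at an unadjusted p under 0.05. The p-values measure the spread between these libraries, since separate cultures are not stated.

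**Figure D2:**
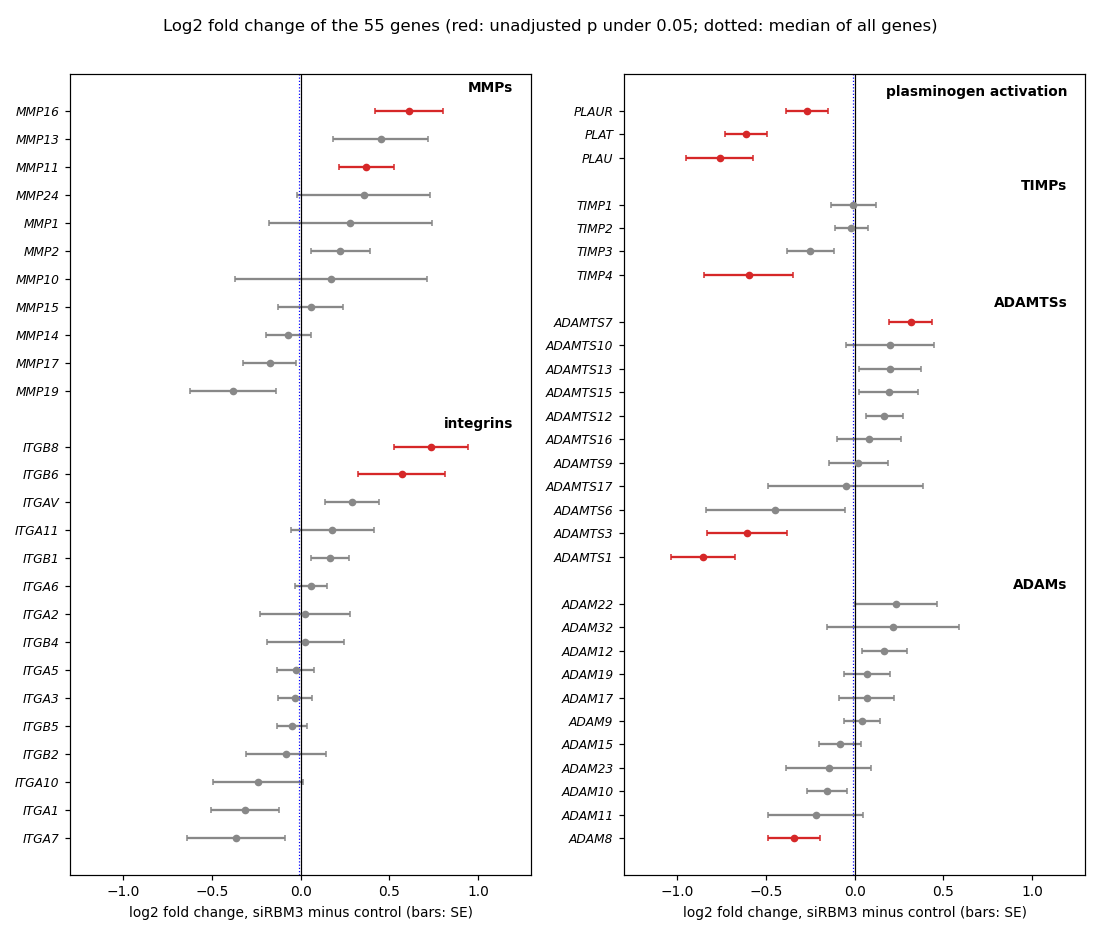
Log2 fold change of siRBM3 minus control for the 55 genes by class, from edgeR, with bars of 1 SE; red marks an unadjusted p under 0.05, and the dotted line is the median of all genes (-0.01). The 3 plasminogen activation genes lie left of 0, and ADAMTS1 (-0.86) and ITGB8 (0.74) are the extremes.

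By class, the median log2 fold change was -0.61 for the 3 plasminogen activation genes, -0.14 for the 4 TIMPs, 0.03 for the 15 integrins, 0.04 for the 11 ADAMs, 0.08 for the 11 ADAMTSs and 0.22 for the 11 MMPs. The classes are small, and their members are not replicates of a condition.

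All 3 genes of plasminogen activation stood lower in siRBM3. PLAT (ENSG00000104368), the tissue-type activator best known for dissolving fibrin, was at 646, 530 and 522 CPM in the control libraries and at 333, 392 and 385 CPM in the siRBM3 libraries. Each siRBM3 library was below each control library, with control library 1 the highest of the 6. The level was 1.53-fold lower (log2 fold change -0.61, SE 0.12, edgeR FDR 0.110), and DESeq2, with an adjusted p of 0.00298, called it as lower. When single libraries were left out, the log2 fold change stayed between -0.67 and -0.51.

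PLAU (ENSG00000122861, chr10:75668935-75677254, plus strand, GRCh37), the urokinase-type activator that works at the cell surface and at the leading edge of moving cells, was at 131, 204 and 153 CPM in control and at 115, 93.7 and 79.2 CPM in siRBM3. The groups did not overlap, though control library 1 lay close to siRBM3 library 3. The level was 1.70-fold lower (log2 fold change -0.76, SE 0.19, edgeR FDR 0.175), DESeq2 gave an adjusted p of 0.0154, and leaving out a library gave -0.91 to -0.57. C10orf55, on the opposite strand, shares 31.0% of the exon bases of PLAU. It stood at 1.98 to 4.43 CPM, and the sources used here do not say if counting was strand-aware.

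PLAUR (ENSG00000011422, chr19:44150247-44174699, minus strand) was at 57.8, 61.0 and 73.8 CPM in control and at 50.9, 56.4 and 52.4 CPM in siRBM3. The groups were separate by a narrow margin, between 57.8 and 56.4 CPM. Its log2 fold change was -0.27 (SE 0.12, edgeR FDR 0.379), and it was -0.16 without control library 5, where the unadjusted p was no longer under 0.05. In CPM not divided by length, the ratio of PLAU to PLAUR was 2.27, 3.35 and 2.08 in control and 2.26, 1.66 and 1.51 in siRBM3. The difference was -0.49 on the log2 scale (exact two-sided permutation p = 0.2, or 0.7 after Benjamini-Hochberg adjustment over 4 ratios). With 3 libraries against 3, such an exact test cannot go below p = 0.1.

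**Figure D3:**
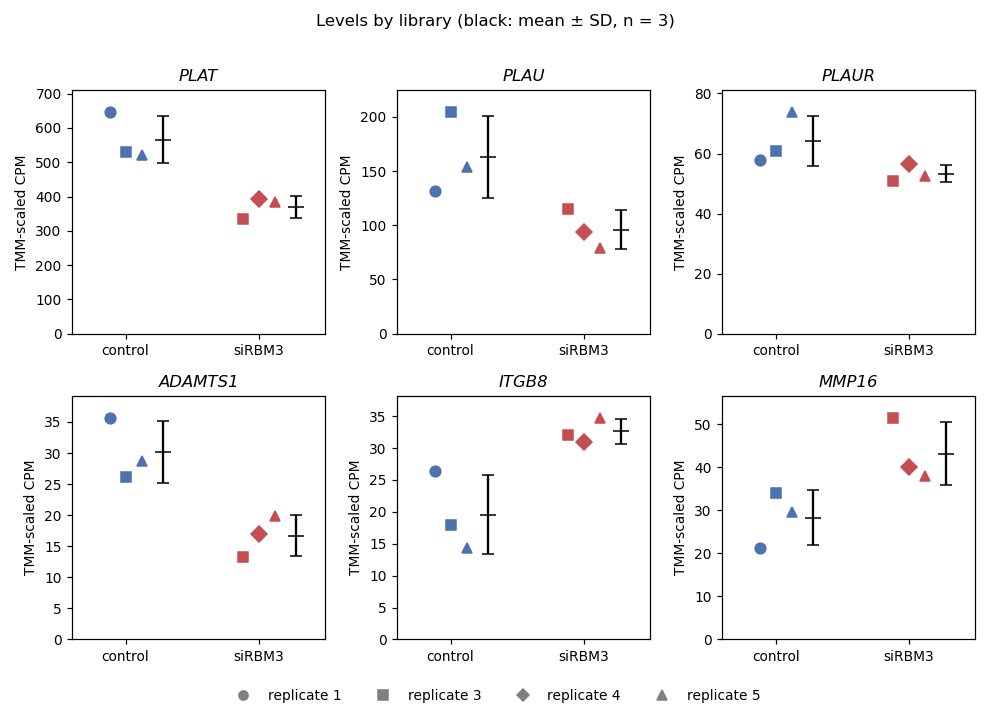
Level in each library (TMM-scaled CPM, axes from 0) of PLAT, PLAU, PLAUR, ADAMTS1, ITGB8 and MMP16, with the replicate number as the marker and the mean and SD (n = 3) in black. In each of the 6 genes the groups do not overlap; PLAT runs from 522 to 646 CPM in control and from 333 to 392 CPM in siRBM3.

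Around these genes, the plasminogen system was followed in a list of 12 genes, of which 9 were tested. The median log2 fold change was -0.06, and on the higher side 1 gene had an edgeR p under 0.05. LRP1, the endocytic receptor that clears complexes of plasminogen activators with their inhibitors, was at 62.0, 50.8 and 62.6 CPM in control and 88.6, 86.8 and 75.4 CPM in siRBM3 (log2 fold change 0.52, SE 0.12, edgeR FDR 0.155), without overlap. PLG, plasminogen itself, was at or below 0.0806 CPM in each library. ANXA2 and S100A10, which bind it at the cell surface, had log2 fold changes of -0.06 and 0.06.

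Of the 15 integrins, 2 had an edgeR p under 0.05, a share near the 13.1% of all genes tested. These were ITGB8 and ITGB6, beta partners of ITGAV. ITGB8 (ENSG00000105855, chr7:20370325-20455377, plus strand), which forms with ITGAV a receptor that binds and activates latent TGF-beta, was at 26.3, 18.0 and 14.3 CPM in control and at 32.1, 31.0 and 34.7 CPM in siRBM3. The control libraries spread 1.84-fold and the siRBM3 libraries 1.12-fold, and the groups did not overlap. It was 1.67-fold higher (log2 fold change 0.74, SE 0.21, edgeR FDR 0.214), DESeq2 gave an adjusted p of 0.0396, and leaving out a library gave 0.56 to 1.01. ITGB6, the beta subunit of another epithelial receptor for latent TGF-beta, was at 1.34, 1.87 and 1.32 CPM in control and at 2.58, 1.97 and 2.14 CPM in siRBM3. Its groups were close at this low level (log2 fold change 0.57, SE 0.25, edgeR FDR 0.379), and 16.7% of its exon bases are shared with another annotated gene. ITGAV itself ran from 147 to 212 CPM in control and from 196 to 252 CPM in siRBM3, with overlap (log2 fold change 0.29, SE 0.15, edgeR FDR 0.463).

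The abundant integrin subunits stood near their control level. ITGB1 was at 1022, 1141 and 1050 CPM in control and at 1341, 1163 and 1102 CPM in siRBM3 (log2 fold change 0.17, SE 0.11, edgeR FDR 0.559). ITGA3 was at 1623, 1756 and 1829 CPM against 1750, 1699 and 1641 CPM (-0.03, SE 0.10), and ITGA6 at 544, 531 and 498 against 523, 548 and 567 CPM (0.06, SE 0.09). In all 3 genes the groups overlapped, and the highest ITGB1 value came from siRBM3 library 3. The collagen-binding subunits ITGA2, ITGA11, ITGA10 and ITGA1 had log2 fold changes of 0.03, 0.18, -0.24 and -0.31. The siRBM3 libraries of ITGA1, at 4.04 to 4.48 CPM, lay below the control libraries, at 4.63 to 6.37 CPM, and 13.2% of its exon bases are shared with other genes. ITGB4, the partner of ITGA6 in hemidesmosomes, had a log2 fold change of 0.03 (SE 0.22), and the fibronectin receptor subunit ITGA5 one of -0.03 (SE 0.10).

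In a list of 21 genes that activate integrins, bind their tails or sit beside them in the membrane, all were tested, 3 were higher and 2 lower at an edgeR p under 0.05, and the median log2 fold change was -0.03. PTK2, the focal adhesion kinase, was at 230, 250 and 211 CPM in control and 317, 264 and 271 CPM in siRBM3 (0.31, SE 0.11, edgeR FDR 0.297), without overlap. LIMS1 (0.44, edgeR FDR 0.354), an adaptor bound to the kinase ILK, and KRIT1, which binds ITGB1BP1 (0.36, edgeR FDR 0.321) were higher, with overlapping groups. PXN, the focal adhesion scaffold paxillin (-0.23, edgeR FDR 0.344), and ITGB1BP1, which binds the tail of ITGB1 and holds it inactive (-0.25, edgeR FDR 0.333), were lower without overlap. TLN1, talin, which switches integrins on, had a log2 fold change of 0.04 (SE 0.10).

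Among the 11 MMPs, the log2 fold change was above 0 for 8, against 7325 of the 15099 genes tested. An edgeR p under 0.05 was found for 2, against 13.1% of all genes tested. MMP16 (ENSG00000156103), a membrane-anchored relative of MMP14, was at 21.3, 33.9 and 29.5 CPM in control and at 51.4, 40.0 and 38.0 CPM in siRBM3. The lowest siRBM3 library lay above the highest control library, and the level was 1.53-fold higher (log2 fold change 0.61, SE 0.19, edgeR FDR 0.244; DESeq2 adjusted p 0.0883). MMP11, a stromelysin that furin activates inside the cell, was at 12.8, 10.7 and 13.9 CPM in control and at 15.2, 18.4 and 15.0 CPM in siRBM3 (0.37, SE 0.16, edgeR FDR 0.362), separate by a narrow margin. MMP14 was at 245, 274 and 338 CPM in control and at 261, 284 and 271 CPM in siRBM3, with overlap (-0.07, SE 0.13, edgeR FDR 0.852). MMP2 had a log2 fold change of 0.22 (SE 0.17). MMP19, at 1.22 to 1.58 CPM in control and 1.01 to 1.14 CPM in siRBM3, had one of -0.38 (SE 0.24).

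MMP10, MMP1 and MMP13 lie near each other on chromosome 11 (GRCh37, minus strand, chr11:102641233-102651359, chr11:102660132-102668891 and chr11:102813724-102826461), and they were the most unequal MMPs within the control group. MMP10 was at 1.96, 7.30 and 12.4 CPM in control and at 9.69, 6.99 and 7.62 CPM in siRBM3. MMP1, the interstitial collagenase, whose libraries are listed because of that spread, seen in the data, was at 3.10, 8.18 and 13.5 CPM against 12.0, 7.62 and 10.4 CPM. MMP13 was at 6.23, 8.75 and 11.6 CPM against 11.3, 15.7 and 9.39 CPM. In all 3 genes control library 1 was the lowest of the controls and control library 5 the highest. The control libraries spread 6.33-fold for MMP10, 4.37-fold for MMP1 and 1.87-fold for MMP13, ranks 1, 2 and 5 among the 55 members, whose median spread was 1.37-fold in control and 1.28-fold in siRBM3. The groups overlapped in each of them, with log2 fold changes of 0.17 (SE 0.54), 0.28 (SE 0.46) and 0.45 (SE 0.27). For MMP10 the value ran from -0.28 without control library 1 to 0.81 without control library 5, so its direction rested on single libraries.

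**Figure D4:**
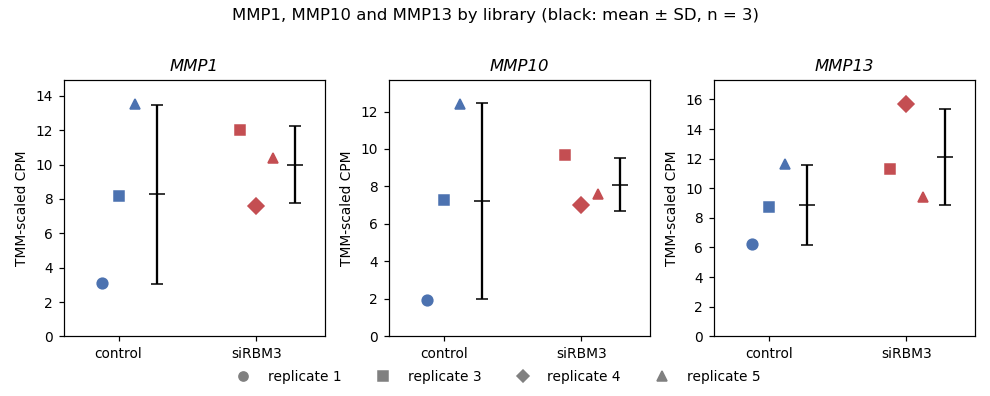
Level of MMP1, MMP10 and MMP13 in each library (TMM-scaled CPM, axes from 0), with the replicate number as the marker and the mean and SD (n = 3) in black. Control replicate 1 is the lowest control and control replicate 5 the highest in each panel, from 1.96 to 12.4 CPM for MMP10.

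AP-1, the FOS and JUN factor, is the textbook activator of stromelysin, collagenase and urokinase receptor genes. The promoters of MMP10 and PLAUR are shown because these windows hold TGANTCA, a loose form of its motif where N is any base. Sequences of the 250 bases before the start site in RefSeq (GRCh38.p14) could be matched for 36 of the 55 members, and those printed were placed on GRCh37 by an exact match. The motif TGANTCA, read on both strands, was in 3 of them (8.33%), MMP10, PLAUR and ADAMTS12, against 5.04% of 15843 promoters of protein-coding genes. PLAT, ADAMTS1, MMP1, MMP13 and MMP16 were among the members without a matched sequence, so their promoters were not searched. The TATA motif, TATAAA or TTTATA, was in MMP10, ITGA6 and ADAMTS10 (8.33% against 9.23%), and the GC box, GGGCGG or CCGCCC, in 25 (69.4% against 56.0%). The MMP10 window covers chr11:102651360-102651459, the 100 bases before the start, and the PLAUR window chr19:44174489-44174518, from 197 to 168 bases before the RefSeq start. That start lies inside the PLAUR gene as given above, whose GENCODE start is upstream of the window. Both are on the minus strand and written from 5′ to 3′, with the AP-1 and TATA matches in capitals.
MMP10: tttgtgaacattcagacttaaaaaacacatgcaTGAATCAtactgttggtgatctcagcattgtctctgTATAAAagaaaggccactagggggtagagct
PLAUR: tcacaactccaTGAGTCAgggccgagccag
The AP-1 match reads TGAATCA in MMP10, starting 67 bases before the RefSeq start, and TGAGTCA in PLAUR, starting 186 bases before it. MMP10 was the most variable of the members among the control libraries and PLAUR one of the lower genes. ADAMTS12, the third with the motif, ranked 53 of 55 by that spread (1.09-fold), with overlap and a log2 fold change of 0.17. PLAU was searched and held no match. Any relation of the motif to these levels was not tested. A match of letters does not show that a factor was bound.

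Of the 11 ADAMs, 1 had an edgeR p under 0.05, against 13.1% of all genes tested. ADAM8, a protease of leukocytes and of several tumours, was at 23.5, 18.4 and 22.4 CPM in control and at 14.7, 18.4 and 17.7 CPM in siRBM3. The groups met at 18.4 CPM and were only just separate (log2 fold change -0.34, SE 0.15, edgeR FDR 0.379). The abundant ADAMs overlapped between the groups. ADAM15 was at 331, 259 and 269 CPM in control and 248, 279 and 284 CPM in siRBM3 (-0.08, SE 0.12). ADAM19 was at 235, 312 and 248 against 308, 263 and 262 CPM (0.07, SE 0.13), and ADAM9 at 264, 267 and 239 against 283, 239 and 270 CPM (0.04, SE 0.10). All 3 log2 fold changes were smaller than their SE. ADAM12, whose siRBM3 libraries (22.1 to 27.5 CPM) lay above the control libraries (20.5 to 22.0 CPM), had a log2 fold change of 0.17 (SE 0.13, edgeR FDR 0.625).

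ADAM10 and ADAM17 are the main sheddases of growth factors, cytokine receptors and Notch. ADAM10 had a log2 fold change of -0.15 (SE 0.11) and ADAM17 one of 0.07 (SE 0.15), each with overlap. Of the 9 genes that carry or mature these proteases, all tested, 0 were higher and 2 lower at an edgeR p under 0.05, with a median log2 fold change of -0.09. FRMD8, which keeps ADAM17 and its rhomboid-like carriers stable at the surface, was at 135, 138 and 125 CPM in control and 88.1, 108 and 100 CPM in siRBM3 (-0.43, SE 0.10, edgeR FDR 0.170). TSPAN5, a tetraspanin partner of ADAM10, was at 82.0, 86.4 and 80.3 CPM against 72.3, 71.1 and 61.2 CPM (-0.28, SE 0.10, edgeR FDR 0.297). In both genes each siRBM3 library was below each control library.

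In a list of 19 membrane proteins that these sheddases release, 18 were tested, 1 was higher and 4 lower at an edgeR p under 0.05, and the median log2 fold change was -0.11. IL6R, a cytokine receptor shed from the surface, was at 2.96, 2.33 and 1.96 CPM in control and 5.72, 4.10 and 4.11 CPM in siRBM3 (0.95, SE 0.24, edgeR FDR 0.175), without overlap. SDC4, a syndecan of focal adhesions, was at 192, 216 and 250 CPM against 158, 186 and 155 CPM (-0.40, SE 0.12, edgeR FDR 0.243), also without overlap. Of the EGF receptor ligands, EREG was at 178, 519 and 458 CPM in control and 252, 154 and 164 CPM in siRBM3 (-1.02, SE 0.38, edgeR FDR 0.325). TGFA (-0.69, edgeR FDR 0.310) and AREG (-1.65, edgeR FDR 0.353, at most 1.73 CPM) were lower as well. In these 3 ligands the groups overlapped, and for EREG control library 1 was the low control.

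Of the 11 ADAMTSs, 1 was higher and 2 lower at an edgeR p under 0.05, against 6.56 and 6.58% of all genes tested. ADAMTS1 (ENSG00000154734, chr21:28208074-28217728, minus strand), which cuts the proteoglycans versican and aggrecan, was at 35.6, 26.1 and 28.7 CPM in control and at 13.3, 17.0 and 19.8 CPM in siRBM3. The groups were apart, with the lowest control at 26.1 and the highest siRBM3 library at 19.8 CPM. The level was 1.81-fold lower (log2 fold change -0.86, SE 0.18, edgeR FDR 0.131), DESeq2 called it as lower with an adjusted p of 0.00294, and leaving out a library gave -0.997 to -0.71. ADAMTS3, which trims procollagen and pro-VEGFC, was at 6.06, 4.24 and 4.40 CPM in control and at 2.65, 3.71 and 3.35 CPM in siRBM3, again without overlap (-0.61, SE 0.23, edgeR FDR 0.308).

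ADAMTS7, a protease of cartilage and vessel wall matrix, was at 35.0, 42.0 and 46.2 CPM in control and at 53.3, 50.3 and 49.9 CPM in siRBM3 (0.32, SE 0.12, edgeR FDR 0.325), without overlap. Its value is uncertain as far as reads are shared with pseudogene copies, of which ADAMTS7P3 stood at 0.403 to 1.03 CPM and ADAMTS7P4 at 0.0764 to 0.275 CPM. The other abundant members of the class overlapped between the groups. ADAMTS15 was at 33.9, 35.6 and 32.4 CPM in control and 49.4, 35.0 and 31.8 CPM in siRBM3 (0.19, SE 0.17), where siRBM3 library 3 stood above the rest. ADAMTS12 was at 49.2, 52.8 and 48.4 against 61.3, 51.5 and 55.9 CPM (0.17, SE 0.10). ADAMTS6 ran from 6.58 to 20.1 CPM in control and had a log2 fold change of -0.45 (SE 0.39).

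The inhibitors TIMP1 and TIMP2 stood at their control level within the spread of the libraries. TIMP1 was at 164, 165 and 223 CPM in control and at 180, 186 and 183 CPM in siRBM3 (-0.01, SE 0.13, edgeR FDR 0.987). TIMP2, which also docks pro-MMP2 to MMP14, was at 235, 214 and 234 CPM against 208, 239 and 227 CPM (-0.02, SE 0.09). TIMP3, the matrix-bound inhibitor that also blocks ADAM17, was at 556, 457 and 593 CPM against 395, 509 and 447 CPM (-0.25, SE 0.13, edgeR FDR 0.472), with overlap. TIMP4 was at 3.96, 5.66 and 3.61 CPM in control and at 3.43, 3.00 and 2.26 CPM in siRBM3, narrowly apart (-0.60, SE 0.25, edgeR FDR 0.362). Without control library 3 the value was -0.38 and the unadjusted p no longer under 0.05, and 14.2% of its exon bases are shared with SYN2.

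MMP14 was set against TIMP1 and TIMP2 as a ratio of CPM within each library, which no scaling between libraries can change. The CPM were not divided by length, so these ratios compare libraries and do not say which RNA was more abundant. Per length, MMP14 stood at 60.3, TIMP1 at 127 and TIMP2 at 36.4 RPKM. MMP14 to TIMP1 was 1.49, 1.67 and 1.52 in control and 1.45, 1.53 and 1.48 in siRBM3 (exact two-sided permutation p = 0.4, adjusted p = 0.7). MMP14 to TIMP2 was 1.04, 1.28 and 1.44 against 1.25, 1.19 and 1.19 (exact permutation p = 0.7, adjusted p = 0.7). Both ratios overlapped between the groups, and the second was less spread in siRBM3 (SD 0.04 on the log2 scale) than in control (SD 0.24).

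Many MMPs and ADAMs are made as inactive precursors that proprotein convertases cut. In a list of 19 convertases and other regulators of proteases, 14 were tested, 2 were higher and 1 lower at an edgeR p under 0.05, with a median log2 fold change of 0.04. FURIN, which activates MMP14, MMP11 and many ADAMs, was at 178, 198 and 192 CPM in control and 265, 242 and 213 CPM in siRBM3 (0.34, SE 0.11, edgeR FDR 0.242). PCSK7, another convertase, was at 45.6, 36.0 and 38.9 CPM against 53.8, 54.0 and 62.2 CPM (0.50, SE 0.12, edgeR FDR 0.170). Each siRBM3 library of these convertases stood above each control library. TFPI2, a matrix-bound inhibitor of plasmin and other serine proteases, was at 72.2, 148 and 137 CPM against 94.0, 66.1 and 73.2 CPM (-0.61, SE 0.26, edgeR FDR 0.379), with control library 1 among the siRBM3 libraries. RECK, a membrane-anchored MMP inhibitor, had a log2 fold change of 0.23 (SE 0.13, edgeR FDR 0.496). Across the 5 lists beyond the families, edgeR and DESeq2 called 0 genes at the thresholds used for the members. At an unadjusted edgeR p under 0.05, 7 genes were higher and 10 lower. These lists held 21, 9, 14, 9 and 18 tested genes. Of all genes tested, 6.56% were higher and 6.58% lower at that p.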

How the data were processed

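RNA of 6 T24 samples was analysed, 3 per group, grouped by the sample labels. Reads were trimmed with BBDuk, aligned to GRCh37 with STAR, marked for duplicates with Picard and counted with featureCounts by the authors, who deposited raw counts per Ensembl gene without normalization. Not given in the sources used here are the annotation release, the strand option of featureCounts and the use of marked duplicates. Symbols, positions and exon lengths came from GENCODE on GRCh37, which matched 55665 of 63677 identifiers.

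Genes were filtered with filterByExpr (minimum count 10, minimum total count 15), scaled by TMM and tested by quasi-likelihood in edgeR 4.0.16 (R 4.3.3). All p-values without another name come from it, with Benjamini-Hochberg adjustment over 15099 genes. Calls needed a 1.5-fold change together with an FDR under 0.01, the thresholds of the study, which used DESeq2. The SE is the log2 fold change divided by the square root of the F statistic. DESeq2 1.42.0, limma-voom (limma 3.58.1), other scalings and filters, single libraries left out and a replicate block were alternatives. Chi-square values between libraries of a group were 27.7 to 141 per degree of freedom, so none was a repeat deposit. The scripts were tested on simulated data.

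The members and gene lists were chosen with earlier results of these data known. All members may be named. Values in each library are given for ITGB1, MMP14, TIMP1 and PLAU, for members with p under 0.05 or a DESeq2 call, and for the 3 most abundant of each class per length. A planned split of ADAMs by their zinc motif was not made, so any ADAM without the motif is counted in the class. Promoters came from RefSeq on GRCh38.p14. One gene of the plasminogen list and the ratio that uses it are not reported here.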

Additional observations from a re-analysis of the deposited data

How the results depend on the processing

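The counts at the call thresholds depended on the fit: 0 members were called on either side by edgeR, with RLE or library-size scaling, with a mean of at least 20 counts, by limma-voom and without any single library, whereas DESeq2 called 2 lower (1.22% of all genes called), edgeR without the filter on low counts 2 higher (ITGB8, MMP16) and 3 lower (ADAMTS1, PLAT, PLAU; 0.927% of all genes), and edgeR with the replicate number as a block 1 higher (ITGB8) and 2 lower (ADAMTS1, PLAU; 2.23% of all genes), with PLAT at an FDR of 0.0243. The groups share only the numbers 3 and 5, and the numbers 1 and 4 each occur once. The block fit therefore took the siRBM3 difference from the libraries numbered 3 and 5 alone. It is not a comparison of 3 with 3 libraries, and its calls and FDR are not on a par with those of the other fits. The deviations of same-numbered libraries correlated at 0.65 and 0.09, so the numbers were not taken as pairs. Members with p under 0.05 on the higher side, 5 in all, were 2 with library-size scaling and with the block, and 2 to 5 with a library left out, with 2 when it was control library 1 or any siRBM3 library. On the lower side, 7 in all, they were 10 with the block, 8 without the filter and 4 to 6 with a library left out, with 4 when it was any siRBM3 library. The share of all genes at that p in these fits is not given here, so the counts were not set against it. Members without overlap numbered 6 to 10 and 9 to 13 with a library left out, where fewer libraries had to be separate. The share of all genes without overlap in those sets is not given here, so these counts cannot be read as a result about the members. The median of all members was -0.019 with library-size scaling, which moved the median of all genes to -0.06, -0.046 with the block and -0.053 to 0.030 with a library left out, below 0 without control library 1 or siRBM3 library 3. For integrins it was -0.026, -0.068 and -0.077 to 0.034, for MMPs 0.085 with the block and 0.096 to 0.32, for ADAMs -0.024 to 0.11, for ADAMTSs -0.024 (without siRBM3 library 3) to 0.15, for TIMPs -0.22 (without control library 3) to -0.079 (without siRBM3 library 3) and for plasminogen activation -0.67 to -0.51. Per kilobase of the longest transcript, ITGA3 stood at 313, MMP14 at 72.4, ADAM15 at 61.8, TIMP1 at 167 and PLAT at 135 RPKM. Log2 fold changes near 0 turned direction: TIMP1 to 0.0084 with limma-voom and 0.0017 without the filter, ADAM9 to -0.0084 with library-size scaling, MMP10 to -0.14 and ADAM15 to 0.0077 with the block. With a library left out the ranges across 0 were -0.28 to 0.81 for MMP10, -0.15 to 0.032 for ADAM15, -0.014 to 0.20 for ADAM19, -0.0098 to 0.11 for ADAM9, -0.024 to 0.31 for ADAMTS15, -0.081 to 0.0049 for ITGA3, -0.17 to 0.067 for MMP14, -0.084 to 0.15 for TIMP1 and -0.065 to 0.033 for TIMP2, and the log2 ratio of MMP14 to TIMP2 ran from -0.17 to 0.071. The causes were not tested. PLAT, PLAU, ADAMTS1, ITGB8 and MMP16 had p under 0.05 in 6 of 6 fits that left out a library, ADAMTS3 in 4, TIMP4 in 3, ADAMTS7 in 2, and PLAUR, ADAM8, ITGB6 and MMP11 in 1. RBM3 ran from -2.40 to -1.96 in those fits, alternatives added after the data were seen. At 3 libraries a group, members near 1 CPM have wide errors.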

Other observations

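Genes whose symbols lie close to the families but outside them were followed in a list of 18, of which 10 were tested. An unadjusted edgeR p under 0.05 was found for 1 on the higher and 0 on the lower side (6.56 and 6.58% of all genes tested), and edgeR and DESeq2 called 0. ITGBL1, a secreted protein with integrin-like EGF repeats, was at 2.75, 3.10 and 5.27 CPM in control libraries 1, 3 and 5 and at 4.70, 6.16 and 7.14 CPM in siRBM3 libraries 3, 4 and 5 (log2 fold change 0.69, SE 0.28, edgeR FDR 0.354), with overlap. ITGAE, the alpha subunit of a lymphocyte receptor for E-cadherin, ran from 13.1 to 24.7 CPM in control and from 9.35 to 23.9 CPM in siRBM3.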
